A study of Mus musculus with 10 samples.

Results

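The clustered protocadherins are cell-surface adhesion genes lying in 3 adjacent arrays on mouse chromosome 18, and their RNA was examined here at E12.5 in lumbar spinal cord. Members were the protein-coding rows of the deposited gene table whose annotated symbol began with Pcdha, Pcdhb or Pcdhg. This rule found 57 of 54146 genes, of which 14 lay in the alpha cluster, 22 in the beta cluster and 21 in the gamma cluster. Pcdhgb8, annotated as a polymorphic pseudogene, was not a member. On the mm10 build the alpha cluster spanned bases 36930184 to 37187661, the beta cluster 37264938 to 37524479 and the gamma cluster 37661793 to 37841873, all on the plus strand.

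The series compared Dot1l conditional mutants (Dot1l-cKO) with control littermates, asking what the loss of the histone H3 lysine 79 methyltransferase DOT1L does to transcription in the developing spinal cord. There were 5 embryos in each group, taken from 2 litters, with 3 controls and 3 Dot1l-cKO in litter 1 and 2 of each in litter 2. Dot1l-cKO embryos carried 1 Wnt1cre2 allele and 2 floxed Dot1l alleles. No control carried the cre, and controls had 2 floxed alleles in litter 1 and 1 in litter 2, so among controls the litter and the number of floxed alleles cannot be told apart. The cre is driven by Wnt1 sequence and is known for activity in the dorsal neural tube. The study proposes that some ventral cells of the lumbar cord might be affected as well. RNA of the whole cord may thus mix recombined and unrecombined cells. Per the sample labels, the dorsal root ganglia were not removed. The Dot1l counts did not separate the groups, at 94.0 ± 7.85 CPM, that is counts scaled to a common library total, in controls and 105.6 ± 6.18 in Dot1l-cKO (SD, n = 5 each), and since a deleted part of a gene need not lower its counts, they did not check the genotype. Libraries held 40949585 to 68928443 counted reads. Both Dot1l-cKO embryos of litter 2 had Y-linked Ddx3y at 46.7 and 41.5 CPM and Xist at 6.00 and 6.79 CPM. The other 8 embryos had Xist at 498.8 CPM or more. Sex therefore cannot be told apart from the mutant genotype within litter 2, nor from litter among Dot1l-cKO embryos. In bulk RNA, fewer cells of a type and less RNA per cell cannot be told apart.

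Each clustered protocadherin gene begins with its own promoter and its own large exon, which encodes the extracellular cadherin repeats, the membrane span and the start of the cytoplasmic tail. In the alpha and gamma clusters that exon is spliced to constant exons shared by the whole cluster, whereas beta genes consist of a single exon. Neurons choose a subset of the alternate genes largely at random, through CTCF and cohesin looping of a promoter to a distant enhancer, while the C-type genes at the 3′ ends of the alpha and gamma clusters are expressed more uniformly. The proteins bind the same isoform on a facing membrane, which lets neurites of a single neuron recognise and avoid each other, and loss of the gamma cluster is known to cause death of spinal interneurons.

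Because the constant exons belong to every gene of a cluster, a read lying wholly inside them cannot be assigned to 1 member, and the sequence that tells a member apart is that which it shares with no other annotated gene. Such own sequence made up 7.0 to 51.4% of the exonic bases of alpha members, 36.5% to all of those of beta members and 0.0 to 68.5% of gamma members. The shortest stretches were the 0 own bases of Pcdhga10, the 404 of Pcdha4, the 1107 of Pcdhb12, the 1256 of Pcdhga11 and the 1268 of Pcdha11, whose first exons are overlapped by other annotated genes. Among them Pcdhga10, Pcdha4, Pcdha11 and Pcdhb12 had mean levels of 0.346, 0.387, 0.280 and 0.869 CPM. Pcdhga11 was an exception, at 15 CPM. Pcdhga10 still had 5 to 29 counts per embryo with no own base in the annotation used here, which is a later release than the one behind the counts. The part of the overlaps in the low counts of these 4 genes was not tested.

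**Figure D1:**
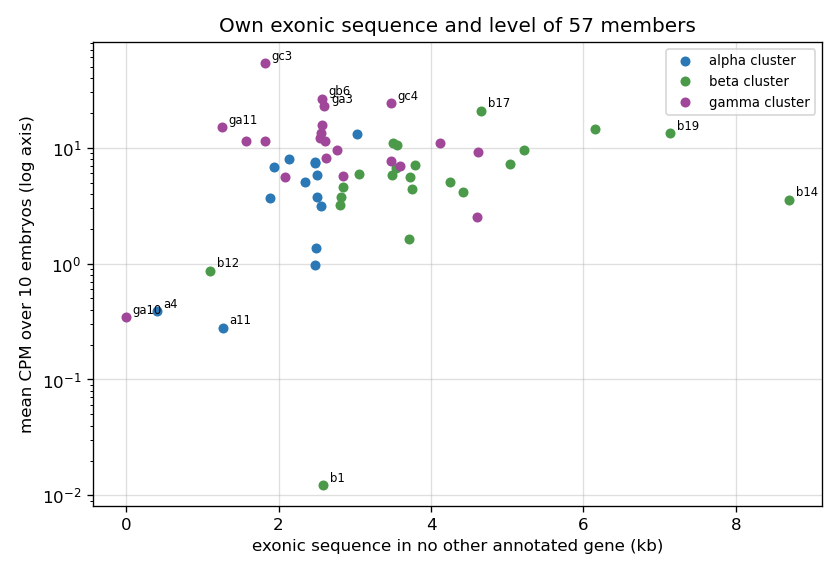
Exonic sequence in no other annotated gene (kilobases, horizontal axis) against mean CPM over 10 embryos (log vertical axis), 1 point per member and colours for the clusters. Of the 5 members with the least own sequence, 4 lie under 1 CPM and Pcdhga11 stands at 15 CPM, and Pcdhb1 lies lowest at 0.0123 CPM with 2588 own bases.

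Levels between genes are compared below as CPM per kilobase of own exonic sequence, after scaling by trimmed mean of M-values (TMM). The gamma cluster had the highest median level per length, at 4.57 CPM per kb over 20 members with own sequence, against 2.04 over 14 alpha and 1.55 over 22 beta members. Dividing by all exonic bases instead lowered the alpha median to 0.831 and the gamma median to 2.40, and left the beta median at 1.55. Gamma members ranged from 0.547 to 29.2, alpha members from 0.221 to 4.35 and beta members from 0.00475 to 4.46 CPM per kb. Summed over members, the gamma cluster held 57.1 ± 3.11% of the members' CPM, the beta cluster 29.6 ± 2.59% and the alpha cluster 13.4 ± 0.958% (SD, n = 10).

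Pcdhgc3, a C-type gamma member known to promote dendrite branching, stood highest by CPM and per length. Its level was 52.1, 55.7 and 58.4 CPM in the litter 1 controls, 58.9, 54.2 and 48.3 in the litter 1 Dot1l-cKO, 47.4 and 45.7 in the litter 2 controls and 54.5 and 57.1 in the litter 2 Dot1l-cKO. Genotypes overlapped in litter 1 and not in litter 2, where both Dot1l-cKO embryos were higher, and litters overlapped. Its genotype log2 fold change in litter 2 alone was 0.27 (adjusted p = 0.0551, edgeR). Per length it reached 29.2 ± 2.58 CPM per kb (SD, n = 10). Next came Pcdhga11 at 11.9 ± 1.12 and Pcdhgb6 at 10.3 ± 1.38, which overlapped in their spread. The Pcdhga11 value rests on 1256 own bases. Divided by all exonic bases, Pcdhgc3 stood at 9.68, Pcdhgb6 at 5.65 and Pcdhga11 at 3.15 CPM per kb. Pcdhgc3 alone took 18.8 ± 1.21% of the gamma counts, where an equal share among 21 members would be 4.76%. The other C-type gamma members were spread widely along the scale. Pcdhgc4, which is required for survival of spinal interneurons, reached 6.92 ± 1.59 CPM per kb, and Pcdhgc5, a gene known mainly from later stages, 0.547 ± 0.127, which was the lowest of the 20.

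In the alpha cluster the C-type member Pcdhac2, known for the tiling of serotonergic axons, ranked first at 4.35 ± 0.822 CPM per kb. The alternate members Pcdha7 at 3.71 ± 0.738 and Pcdha12 at 3.48 ± 0.638 came next, Pcdha7 within 1 SD of it. Pcdhac1, the other C-type alpha member, was lower, at 1.24 ± 0.146. Pcdha1 at 0.548 ± 0.172 and Pcdha8 at 0.395 ± 0.169 were the lowest alpha members whose own exon no other gene overlaps. Pcdhac2 held 19.7 ± 1.29% of the alpha counts, and with Pcdha7 and Pcdha9 42.7 ± 1.61%, where 14 equal shares would be 7.14% each.

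In the beta cluster Pcdhb17 stood first at 4.46 ± 0.945 CPM per kb, ahead of Pcdhb7 at 3.15 ± 0.621 and Pcdhb20 at 2.96 ± 0.723, 2 members that overlapped in their spread. Pcdhb17, Pcdhb22 and Pcdhb19 together held 32.5 ± 0.870% of the beta counts. Pcdhb1, at the 5′ end of the cluster, had between 0 and 4 counts per embryo. It was at 0 in 7 of 10 embryos, which allows up to 3 counts, or 0.0428 to 0.0759 CPM depending on the library, for counting error only. It did not pass the filter on low counts, so 56 of the 57 members were tested. The low level of Pcdhb1 stood apart from that of its neighbour Pcdhb2, at 1.33 ± 0.260 CPM per kb. Spearman's rho between position along the cluster and level per length was 0.19 over 14 alpha, 0.19 over 22 beta and 0.06 over 20 gamma members, as a description of genes that share libraries.

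**Figure D2:**
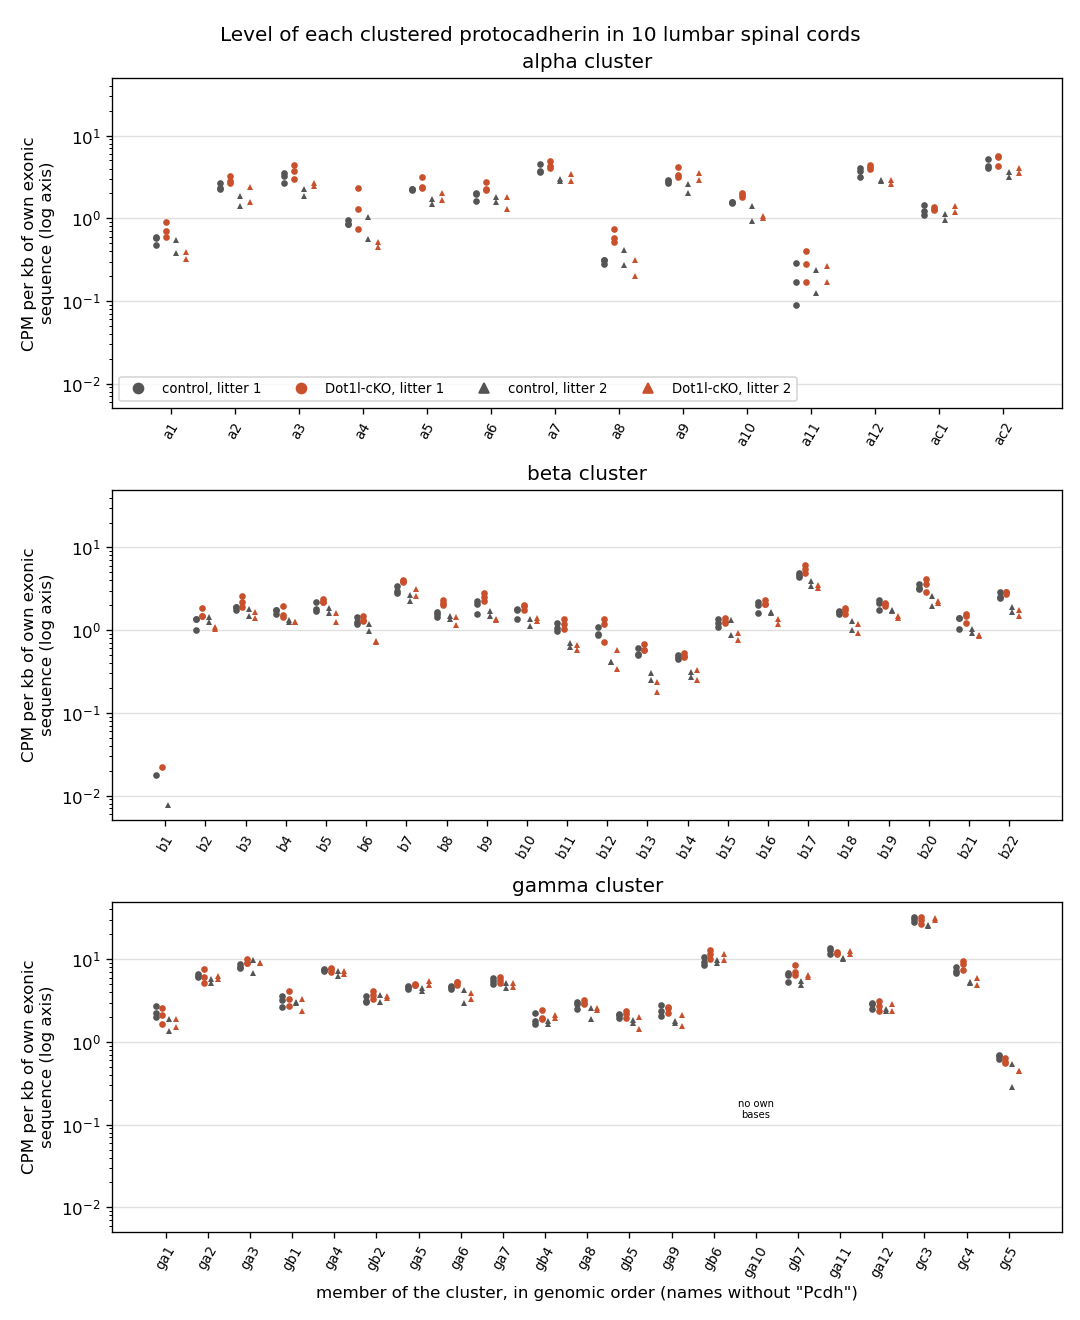
CPM per kilobase of own exonic sequence (log axis) of each member in genomic order, 1 point per embryo, with grey for control, orange for Dot1l-cKO, circles for litter 1 and triangles for litter 2; values of 0 (Pcdhb1) are not drawn and Pcdhga10 has no own bases. Pcdhgc3 lies above all others at 29.2 CPM per kb on average, and in the beta panel the triangles lie mostly below the circles.

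The first comparison asked whether the clusters differed between Dot1l-cKO and control embryos once litter was taken into account. Summed over its members, the alpha cluster stood at 68.6, 64.3 and 73.2 CPM in the litter 1 controls and at 88.7, 82.4 and 73.5 in their Dot1l-cKO littermates, and at 51.3 and 53.0 against 53.5 and 62.8 in litter 2. Every Dot1l-cKO embryo thus lay above every control of its own litter. The beta sum was also higher in litter 1, at 170.8 to 190.2 CPM against 153.1 to 164.4, but in litter 2 it was 106.9 and 117.3 in Dot1l-cKO against 131.4 and 115.9 in controls, which overlapped. The gamma sum overlapped in litter 1, at 286.3 to 318.9 CPM in Dot1l-cKO and 279.3 to 301.6 in controls, and did not in litter 2, at 270.3 and 282.1 against 263.6 and 235.0.

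**Figure D3:**
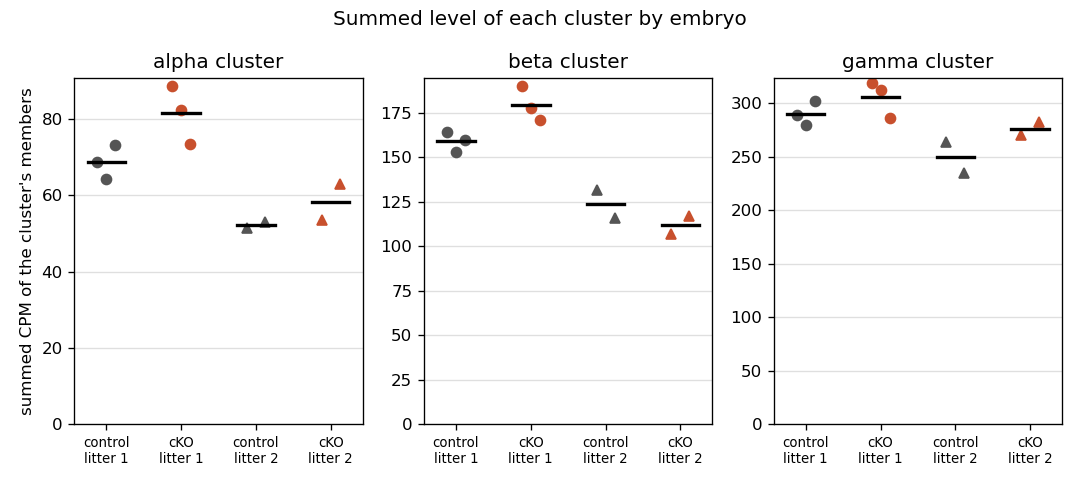
Summed CPM of the members of each cluster (vertical axes from 0, each with its own scale), 1 point per embryo in the 4 combinations of genotype and litter, with a line at the mean. The alpha and beta sums of litter 2 lie below those of litter 1, and the alpha sums of Dot1l-cKO embryos lie above the controls of their litter.

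No single member passed the test of genotype. With the quasi-likelihood test of edgeR, adjusted by Benjamini-Hochberg over 19773 genes, 0 of 56 members were called higher and 0 lower in Dot1l-cKO, where 1.90% of all genes were called higher and 1.09% lower. At an unadjusted p below 0.05 there were 6 of 56 members, where 21.7% of all genes were. DESeq2 called 2 of 57 members higher and 0 lower, where it called 2.44% of all genes higher and 1.84% lower, and it had 7 at an unadjusted p below 0.05, where 12.7% of all genes were. limma-voom called 0 of 56, where it called 1.25% of all genes higher and 0.900% lower, with 7 at an unadjusted p below 0.05, where 21.6% of all genes were. The median log2 fold change was 0.19 over 14 alpha, 0.04 over 21 beta and 0.05 over 21 gamma members, beside -0.01 over all genes. All 14 alpha members, 14 of 21 beta members and 18 of 21 gamma members had a value above 0, where 48.0% of all genes did. Members of a cluster share libraries and an enhancer region, so these counts of signs are descriptive. The beta and gamma medians also moved with single embryos. When single embryos were left out, the alpha median ran from 0.15 to 0.26, with 13 or 14 of 14 members above 0, and the gamma median from 0.04 to 0.10, the highest without the third control of litter 1. The beta median ran from -0.00, with 9 of 21 above 0 without the second control of litter 1, to 0.09, with 17 of 21 above 0 without the first Dot1l-cKO embryo of litter 2, and it was also at 0.02 or less without the third control or the first or second Dot1l-cKO embryo of litter 1 and at 0.08 without the first control of litter 2. With Xist level as a covariate the alpha, beta and gamma medians were 0.30, 0.18 and 0.07, with 20 of 21 beta members above 0. The 6 members at an unadjusted p below 0.05 became 11 without the first control of litter 2, and 10 without the third Dot1l-cKO embryo of litter 1 or the first of litter 2, where 18.1, 23.6 and 19.9% of all genes were.

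The nearest to the threshold was Pcdha9, an alternate alpha gene. It stood at 7.07, 6.68 and 7.23 CPM in the litter 1 controls and 10.5, 8.39 and 7.86 in the litter 1 Dot1l-cKO, and at 5.04 and 6.45 against 7.17 and 8.72 in litter 2. Every Dot1l-cKO embryo exceeded every control of its litter. Its log2 fold change was 0.40 ± 0.11 (SE, Benjamini-Hochberg adjusted p = 0.0563, edgeR), and DESeq2 called it, with an adjusted p of 0.0109. The same full separation in both litters held for Pcdhga5 alone of the other members, whose controls reached at most 12.0 CPM in litter 1 and 11.5 in litter 2 and whose Dot1l-cKO embryos reached 12.8 and 13.9, with a log2 fold change of 0.17 ± 0.07 (adjusted p = 0.154, edgeR). That made 2 of 56 members, or 3.57%, where 3.80% of all tested genes separated in this way. The share among the members was thus no larger than among all genes.

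Other members at the ends of the genotype scale had wide errors or small values. In the alpha cluster the largest log2 fold changes were those of Pcdha11, 0.49 ± 0.38, and Pcdha8, 0.48 ± 0.27, both at low counts, and the smallest those of Pcdha12, 0.09 ± 0.09, and Pcdha10, 0.13 ± 0.13. In the beta cluster Pcdhb7 at 0.30 ± 0.09 (adjusted p = 0.0695, edgeR) and Pcdhb8 at 0.23 ± 0.12 were the largest, and Pcdhb6 at -0.16 ± 0.13 and Pcdhb19 at -0.11 ± 0.08 the smallest. In the gamma cluster Pcdhgb7 at 0.25 ± 0.09 and Pcdhgb6 at 0.24 ± 0.08 led, and Pcdhgc5 at -0.08 ± 0.15 and Pcdhga10 at -0.06 ± 0.38 came last. The C-type genes Pcdhac1, Pcdhac2, Pcdhgc3 and Pcdhgc4 lay between 0.08 and 0.17, and none of them passed the test. Pcdhb7, called by DESeq2 with an adjusted p of 0.0172, stood at 10.5, 12.0 and 9.85 CPM in litter 1 controls, 14.1, 13.2 and 13.8 in litter 1 Dot1l-cKO, 9.22 and 7.82 in litter 2 controls and 8.97 and 10.9 in litter 2 Dot1l-cKO. Its groups did not overlap in litter 1 and did in litter 2. The count of calls changed with 1 library, since without the third Dot1l-cKO embryo of litter 1 Pcdha9 and Pcdhgb6 were called, with log2 fold changes of 0.45 and 0.29 and adjusted p of 0.0255 and 0.0486 by edgeR. In that fit 4.90% of all genes were called higher, above the 3.57% that 2 of 56 members make.

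**Figure D4:**
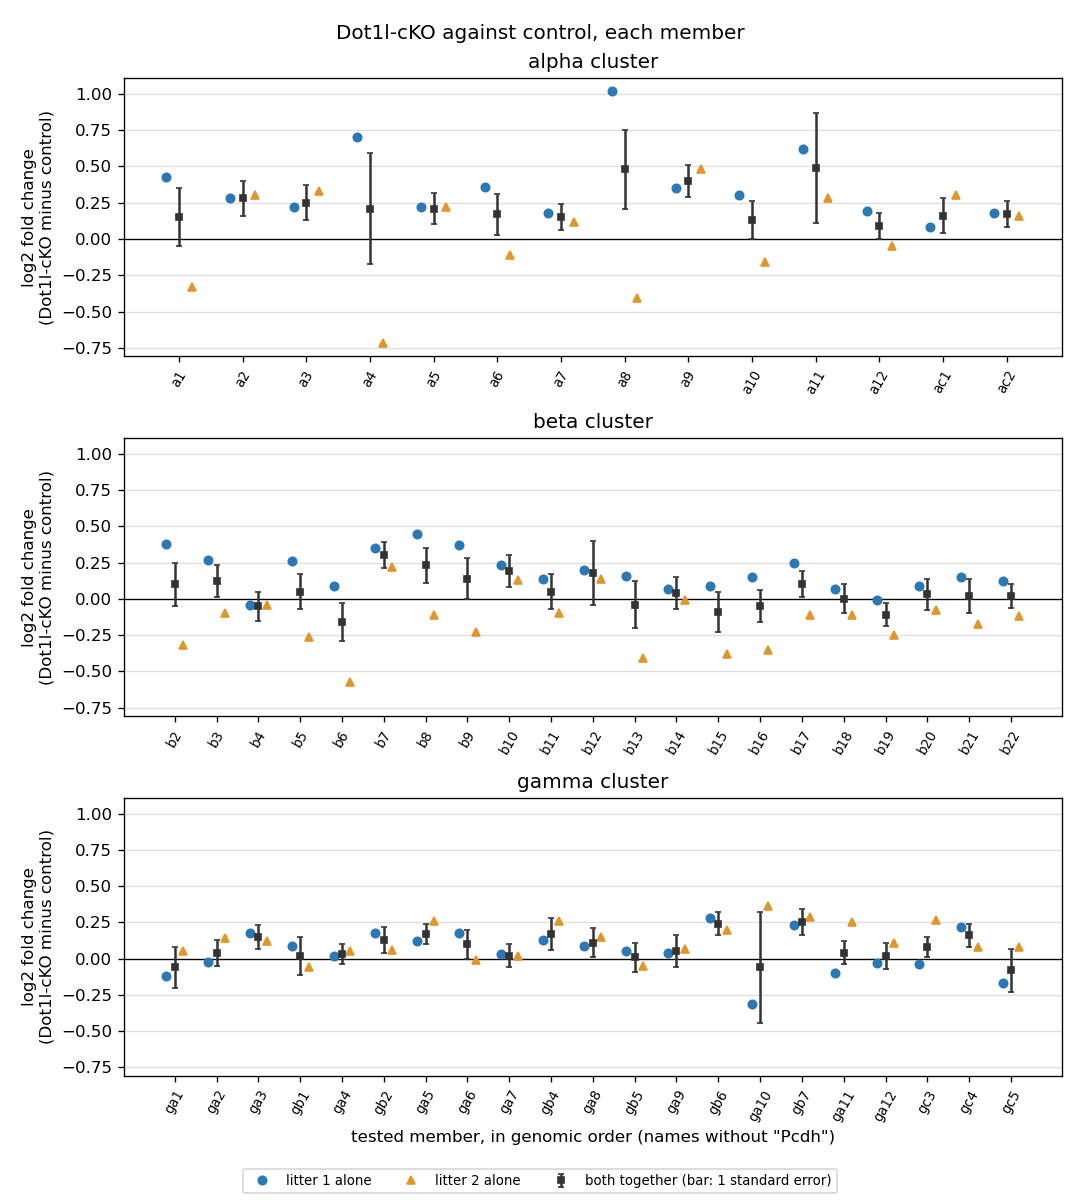
Log2 fold change of Dot1l-cKO over control for each tested member in genomic order, with squares and bars of 1 standard error for both litters together, circles for litter 1 alone and triangles for litter 2 alone. Alpha squares lie from 0.09 to 0.49, and in the beta panel 18 of 21 triangles lie below 0 while 19 of 21 circles lie above it.

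Within litters, the fitted values of most beta genes had opposite signs. In litter 1 alone the median log2 fold change was 0.15 over 21 beta members, with 19 above 0, and in litter 2 alone it was -0.11, with 3 above 0. Over all genes 51.7% had a value above 0 in litter 1 alone and 48.3% in litter 2 alone. Of 14 alpha members all had a value above 0 in litter 1 alone (median 0.29), and 8 did in litter 2 alone (median 0.14). Among the 12 alternate alpha genes that count in litter 2 was 6, with a median of 0.03. Of 21 gamma members 14 were above 0 in litter 1 (median 0.05) and 18 in litter 2 (median 0.11). In the test of the difference itself, the genotype by litter interaction, 0 of 56 members were called, where 0.0101% of all genes were called, by edgeR's quasi-likelihood test. There were 10 members at an unadjusted p below 0.05, where 8.19% of all genes were. DESeq2 and limma-voom also called 0 members, where they called 0.267% and 0.00506% of all genes, with 10 and 9 members at an unadjusted p below 0.05, where 4.39% and 8.09% of all genes were. All 21 beta members had an interaction below 0, with a median of -0.31 beside -0.01 over all genes. Both counts fell without single embryos of litter 2. Without its first Dot1l-cKO embryo 6 members were at an unadjusted p below 0.05, where 5.55% of all genes were, and 17 of 21 beta members lay below 0. Without its first control these were 7 members, where 8.78% of all genes were, and 16 beta members. In the other fits without 1 embryo 7 to 14 members had an unadjusted p below 0.05, where 6.19 to 13.4% of all genes did. In those fits 20 or 21 beta members lay below 0. With Xist level as a covariate 1 member had an unadjusted p below 0.05, where 6.66% of all genes did. In that fit 9 of 21 beta members lay below 0, but Xist level nearly repeats the interaction term. It therefore cannot tell the interaction from sex.

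Markers of the dorsal root ganglion also changed sign between litters. The median genotype log2 fold change over 9 of them was -0.18 within litter 1 and 0.50 within litter 2. Their summed level was 861.3 to 948.9 CPM in controls and 639.5 to 841.5 in Dot1l-cKO of litter 1, and 356.7 to 358.2 and 444.1 to 500.0 in those of litter 2, so the genotypes separated in opposite directions. The median over 8 mesenchyme markers was -0.33 and 0.14, with sums of 1581.5 to 2128.8 CPM in controls and 1094.1 to 1723.4 in Dot1l-cKO of litter 1, which overlapped, and of 1096.5 to 1274.4 and 1322.7 to 1508.5 in litter 2, which did not. Medians of blood markers were -0.12 and 0.49, of microglia markers -0.07 and 0.17 and of endothelial markers -0.39 and 0.01. Progenitor medians were -0.07 and -0.03, pan-neuronal medians 0.05 and 0.01 and muscle medians -0.79 and -1.57. The part of these cell classes in the members' within-litter values was not tested.

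Pcdha8, an alternate alpha gene, had the smallest p of the interaction. It stood at 0.772, 0.688 and 0.785 CPM in the litter 1 controls and at 1.43, 1.84 and 1.28 in the litter 1 Dot1l-cKO, and at 1.02 and 0.683 against 0.494 and 0.782 in litter 2. The groups separated in litter 1 and overlapped in litter 2. The interaction was -1.43 ± 0.42 on the log2 scale, with an adjusted p of 0.394 by edgeR. Pcdhb6 followed, at 4.49, 5.37 and 4.78 CPM in controls and 5.03, 5.64 and 4.88 in Dot1l-cKO of litter 1, and at 4.42 and 3.69 against 2.74 and 2.71 in litter 2, with an interaction of -0.66 ± 0.21 (adjusted p = 0.450, edgeR). Both Dot1l-cKO embryos of litter 2, which were also those with Y-linked Ddx3y above 1 CPM, lay lowest for Pcdhb6.

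The second comparison set litter 2 against litter 1 with genotype in the model, and here the members differed. Of 56 members, 34 were called lower in litter 2 and 0 higher (Benjamini-Hochberg adjusted, edgeR's quasi-likelihood test), that is 60.7% of the tested members, where 17.8% of all genes were called lower and 16.9% higher. Scaling by library size alone shifted the split over all genes from 3521 lower and 3337 higher to 4306 and 2546, and called 38 members lower and 0 higher, where 21.8% of all genes were called lower. By cluster, 19 of 21 beta, 8 of 14 alpha and 7 of 21 gamma members were called lower. The median log2 fold change was -0.52 in the beta, -0.49 in the alpha and -0.15 in the gamma cluster, beside -0.02 over all genes. Every embryo of litter 2 lay below every embryo of litter 1 for 19 of 56 members, or 33.9%, among them 12 beta, 4 alpha and 3 gamma members, where 11.6% of all genes did so.

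Summed over the cluster, the beta members stood at 169.3 ± 13.4 CPM in litter 1 (SD, n = 6) and 117.9 ± 10.2 in litter 2 (SD, n = 4). The alpha sum was 75.1 ± 8.98 and 55.1 ± 5.15 CPM, and in neither of these clusters did the litters overlap. The gamma sum was 297.9 ± 15.7 and 262.7 ± 20 CPM, with overlap. The gamma cluster accordingly held 55.0 ± 1.24% of the members' CPM in litter 1 and 60.3 ± 2.05% in litter 2, and the beta cluster 31.2 ± 0.829 and 27.1 ± 2.32%. Within litter 2 the beta share was 29.4 and 28.7% in the controls and 24.8 and 25.4% in the Dot1l-cKO, a difference by genotype that was not tested.

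The 4 largest falls among beta members were those of 4 neighbours in the array, Pcdhb11, Pcdhb12, Pcdhb13 and Pcdhb14. Pcdhb13 stood at 1.91, 2.25 and 1.88 CPM in litter 1 controls and 2.11, 2.51 and 2.11 in litter 1 Dot1l-cKO, against 1.13 and 0.936 and 0.671 and 0.882 in the controls and Dot1l-cKO of litter 2. It fell by 1.24 on the log2 scale (SE 0.17, adjusted p = 8.4e-05, edgeR). Pcdhb12 stood at 0.787 to 1.5 CPM in litter 1 and 0.371 to 0.632 in litter 2, and fell by 1.24 (SE 0.24, adjusted p = 0.00102, edgeR), at counts that rest on 1107 own bases. Neither gene overlapped between litters. Pcdhb11 stood at 4.27 to 6.08 and 2.58 to 3.11 CPM and fell by 0.83 (SE 0.12, adjusted p = 1.3e-04, edgeR), and Pcdhb14 at 3.92 to 4.62 and 2.14 to 2.88 CPM and fell by 0.75 (SE 0.12, adjusted p = 2.3e-04, edgeR). These 4 genes also had the lowest levels per length of the tested beta members, between 0.408 and 0.940 CPM per kb. The set was picked out after its values were seen and carries no test of its own.

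The abundant beta genes fell as well. Pcdhb22, the last gene of the array, stood at 18, 15.2, 15.6, 17.9, 17.8 and 17.1 CPM in litter 1 and at 11.7, 10.2, 9.20 and 10.9 in litter 2, and fell by 0.69 (SE 0.08, adjusted p = 3.2e-05, edgeR). Pcdhb17, the most abundant, stood at 20.6 to 28.3 and at 15.1 to 18.4 CPM and fell by 0.52 (SE 0.09, adjusted p = 4.7e-04, edgeR). In both genes all 4 embryos of litter 2 lay below all 6 of litter 1. The smallest change in the cluster was that of Pcdhb2, -0.25 ± 0.16, which did not pass the test over both genotypes and did in Dot1l-cKO alone, at -0.60 (adjusted p = 0.0362, edgeR). In controls alone its value was 0.10. The smallest called ones were Pcdhb3 at -0.35 ± 0.12, Pcdhb19 at -0.38 ± 0.09 and Pcdhb4 at -0.39 ± 0.10.

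Among alpha members the alternate gene Pcdha10 fell by 0.66 (SE 0.14, adjusted p = 0.00171, edgeR), from 3.85 to 5.12 CPM in litter 1 to 2.30 to 3.48 in litter 2, with no overlap. Pcdha4 had the lowest fitted value, -0.83 ± 0.40, which did not pass the test, at 9 to 56 counts per embryo, and it passed without the first control of litter 2, at -1.25 with an adjusted p of 0.0388 by edgeR. Pcdhac2 fell by 0.41 (SE 0.10, adjusted p = 0.00441, edgeR), from 12.4 to 16.9 CPM in litter 1 to 9.64 to 12.4 in litter 2. The C-type member Pcdhac1, at -0.13 ± 0.12, and Pcdha9, at -0.23 ± 0.11, had the values nearest to 0 and did not pass the test.

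The gamma cluster was mixed. Pcdhgc4 stood at 27.9, 25.4 and 23.9 CPM in controls and 33.4, 25.8 and 30.2 in Dot1l-cKO of litter 1, and at 18.3 and 17.8 and 17.1 and 20.9 in those of litter 2, without overlap. It fell by 0.58 (SE 0.08, adjusted p = 1.3e-04, edgeR), and its share of the gamma counts was 9.33 ± 1.10% in litter 1 and 7.06 ± 0.556% in litter 2. Pcdhgc5 stood at 2.59 to 3.21 CPM in litter 1 and 1.32 to 2.49 in litter 2 and fell by 0.54 (SE 0.16, adjusted p = 0.0159, edgeR). Pcdhgc3, directly 5′ of them, had a log2 fold change of -0.10 ± 0.07 and was not called over both genotypes, but it was called lower in controls alone, at -0.25 (adjusted p = 0.0308, edgeR), and with Xist level as a covariate, at -0.25 (adjusted p = 0.0472, edgeR). In Dot1l-cKO alone its value was 0.05. The alternate genes Pcdhga5, at -0.00 ± 0.07, and Pcdhgb2, at -0.01 ± 0.09, were nearest to 0. Of 12 A-type genes 4 were called lower, and of 6 B-type genes 1, where 17.8% of all genes were. The calls nearest to 0 were those of Pcdhgb5 at -0.28 ± 0.10, Pcdhga8 at -0.30 ± 0.10 and Pcdhga1 at -0.40 ± 0.15.

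**Figure D5:**
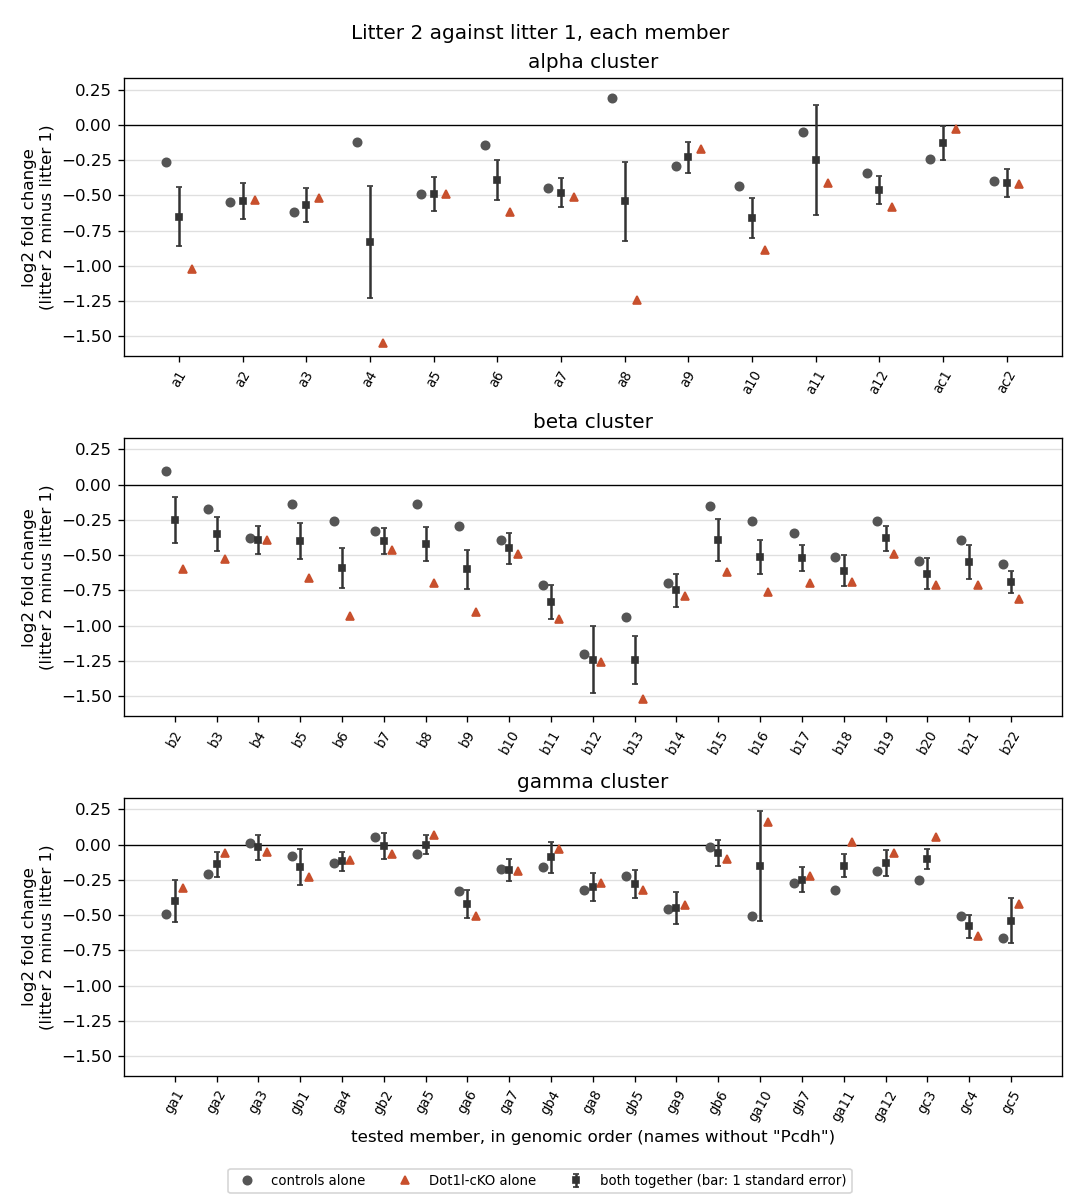
Log2 fold change of litter 2 over litter 1 for each tested member in genomic order, with squares and bars of 1 standard error for both genotypes together, grey circles for controls alone and orange triangles for Dot1l-cKO alone. Beta squares lie from -0.25 down to -1.24 with the lowest at Pcdhb12 and Pcdhb13, and gamma squares lie from -0.58 to 0.

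The litter difference was also called in controls alone, all of which had high Xist counts and no cre, though for fewer members. Among the 5 controls 17 of 56 members were called lower in litter 2, where 12.9% of all genes were, with medians of -0.34, -0.31 and -0.22 over beta, alpha and gamma members. Among the 5 Dot1l-cKO embryos 27 of 56 were, where 9.70% of all genes were, with medians of -0.70, -0.53 and -0.11. In these 5 litter cannot be told apart from sex, since only the Dot1l-cKO of litter 2 had low Xist. With Xist level as a covariate 14 of 56 members were called lower, 8 beta, 2 alpha and 4 gamma, where 11.8% of all genes were. Leaving out 1 embryo at a time gave 28 to 36 calls, where 14.8 to 18.3% of all genes were called lower, and among the genes named above the calls of Pcdhb3, Pcdhgb5, Pcdhga8 and Pcdhga1 were lost without at least 4 of the 10 embryos in turn, with adjusted p up to 0.180 by edgeR. At least 1 of these 4 calls was lost without each of the embryos except the second control of litter 1.

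Marker genes of cell classes also differed between litters. Of 11 progenitor markers 10 were called higher in litter 2 (median log2 fold change 0.67), with a summed level of 2756.0 to 3481.2 CPM in litter 1 and 4318.9 to 4662.3 in litter 2. Of 15 pan-neuronal markers 9 were called lower (median -0.18), with sums of 13217.0 to 14418.5 and 11939.0 to 12972.8 CPM. Of 9 dorsal root ganglion markers 7 were called lower (median -0.81), with sums of 639.5 to 948.9 and 356.7 to 500.0 CPM. No marker in these 3 lists was at 0 in every embryo. The part of these cell classes in the members' litter difference was not tested. Other marker lists were less uniform, with 1 of 3 endothelial, 1 of 5 motor neuron and 1 of 8 mesenchyme markers called lower, 1 of 5 motor neuron, 2 of 8 mesenchyme and 1 of 3 blood markers called higher, and no call among 3 muscle and 3 microglia markers.

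Genes known to act on the clusters or with their proteins were counted in the same fits. Of 27 regulators, which include CTCF, cohesin and its loaders, DNA methyltransferases and SMCHD1, 17 were called higher in litter 2 and 0 lower. Over all genes 16.9% were called higher and 17.8% lower. By genotype 0 regulators were called, and 25 of 27 had a value below 0 (median -0.09), where 48.0% of all genes had a value above 0. The cohesin subunit gene Rad21 had a litter log2 fold change of 0.36 ± 0.04 and Wapl, the cohesin release factor, 0.40 ± 0.05, and Ctcf 0.18 ± 0.04 (adjusted p = 0.00537, edgeR). Of 12 non-clustered protocadherins 7 were called lower and 1, Pcdh18, higher in litter 2, and Pcdh10 was called higher in Dot1l-cKO, at 0.32 ± 0.07 (adjusted p = 0.0306, edgeR). Of 18 classical cadherins 10 were called lower in litter 2 and 0 by genotype. The median genotype log2 fold change was 0.18 over these cadherins, with 13 above 0. It was 0.13 over the non-clustered protocadherins, with 9 above 0, beside 0.19 over the alpha members. Of 22 partners and signalling genes 6 were called higher and 4 lower in litter 2, and in the genotype contrast Nlgn2, a postsynaptic adhesion gene, was called higher at 0.20 ± 0.05 and Ptk2, the focal adhesion kinase, lower at -0.16 ± 0.04. Among the pan-neuronal, progenitor and ganglion markers the genotype contrast called Nefl, Mki67 and Runx3 lower and Prrxl1 higher.

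Of the 6 tested genes flanking or lying between the arrays, 0 were called lower in litter 2. Taf7, which lies between the beta and gamma clusters, was called higher, at 0.16 ± 0.05 (adjusted p = 0.0329, edgeR). Upstream, Hars2 was at -0.09 ± 0.05 and Zmat2 at 0.11 ± 0.05, and downstream Diaph1 was at 0.10 ± 0.05 and Hdac3 at 0.03 ± 0.04, none of them called. Slc25a2, on the opposite strand between the arrays, was at -0.32 ± 0.27 with a level of 0.520 ± 0.102 CPM in litter 1 and 0.422 ± 0.133 in litter 2 and was not called. None of these 6 genes was called in the genotype contrast, in which their log2 fold changes lay between -0.09 and 0.05. Gm42416, Gm37013 and Gm37388, which are annotated as protein-coding and overlap the members, had 0 counts in every embryo, which allows up to 3 counts in each.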

How the data were processed

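RNA of lumbar spinal cords was sequenced from 5 control and 5 Dot1l-cKO embryos with an NEBNext Ultra kit that does not mark strand. Per the study's methods, the authors ran snakePipes 1.2.2, trimmed with TrimGalore 0.5.0, aligned to mm10 with STAR 2.6.1d and deposited whole-number counts per gene from featureCounts (Subread 1.6.4) on GENCODE release M18. The workflow ran with default parameters per the study. featureCounts leaves out reads that overlap several genes unless set otherwise, and what the workflow passed to it was not given in the sources used here. Reads from a gene and its antisense partner cannot be told apart without strand.

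Symbols, coordinates and shared bases came from GENCODE release M21 on the same build, which matched 54079 of 54146 gene identifiers. Its 2 genes named Pcdha11 were told apart by RefSeq coordinates, and 1 was named Pcdha10. Members, gene lists and rules were chosen with earlier results of these data known.

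Counts were tested with edgeR 4.0.16 (R 4.3.3) by glmQLFit and glmQLFTest on 19773 genes kept by filterByExpr, with TMM scaling, litter and genotype as terms, an interaction term for the third test, Benjamini-Hochberg adjustment over all genes and a threshold of 0.05. The standard error was the log2 fold change over the square root of F. CPM used the TMM-scaled library sizes, and totals of 40949585 to 68928443 counts set the precision. Litter is in the labels and in the study's model, so it served as the block. Replicate numbers pair no embryos across groups. All 8 pairs of embryos of the same group and litter differed beyond sampling noise, at 10.0 to 28.7 chi-square per gene, so each embryo counted as 1 replicate.

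Alternatives were other scalings (relative log expression, library size), DESeq2 1.42.0, limma-voom 3.58.1, other edgeR settings, other filters, a correction for GC content of the longest transcript, Xist level as a covariate, each litter or genotype alone, litter left out, and each embryo left out. Scripts were tested on simulated data. Genes named were the 3 highest and 3 lowest by CPM per cluster, the C-type genes, the 6 largest and 6 smallest log2 fold changes among called members, and the 2 largest and 2 smallest per cluster and contrast. Other members named for level per length, overlapping exons or separation of the groups were chosen after their values were seen. The results of 1 marker list are not reported here.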

Additional observations from a re-analysis of the deposited data

Results flagged for a closer look

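In the 5 Dot1l-cKO embryos Pcdhga5 stood at 13.9 CPM in the second embryo of litter 2, apart from 12.8 CPM for the next embryo, a gap that made up 0.759 of the range. Pcdhb1 stood at 0.0571 CPM in the third Dot1l-cKO embryo of litter 1, which is 4 counts, and at 0 in the other 4. These 2 came from 74 comparisons of an extreme embryo with its group, of which chance alone marks about 1 in 20.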

How the results depend on the processing

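In the genotype contrast the count of called members was 0, and 0 to 2 with each embryo left out in turn, 1 with library size alone as the scaling, 2 by DESeq2 and 3 with no filter on low counts, where 0.177 to 4.90%, 2.48%, 2.44% and 3.82% of all genes were called higher. The members called there were all higher in Dot1l-cKO. They were Pcdha9 wherever any was called, Pcdhb7 by DESeq2, and Pcdhb7 and Pcdhgb6 with no filter. Pcdhgb6 was also called without the third Dot1l-cKO embryo of litter 1. With litter left out as a block the count stayed 0. No paired analysis by replicate number was made, because those numbers only name the embryos. Over all genes the genotype contrast called 591, and 1508 by DESeq2, 2201 with no filter, 384 with the GC correction, 49 with Xist as a covariate, 12 and 964 in litters 1 and 2 alone and 0 with litter left out. In the litter contrast the 34 calls became 14 with Xist level as a covariate and 17 in controls alone, and 28 to 36 with each embryo left out; the other alternatives gave 27 to 38, where 9.70 to 21.8% of all genes were called lower. The interaction gave 0 calls under all alternatives run, and with Xist as a covariate its fold changes ran from -9.28 to 6.63, since Xist nearly repeats the interaction term. Controls alone and Dot1l-cKO alone hold fewer embryos, and the cause of the other changes was not tested.

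Signs turned for members that were not called with both litters and genotypes in the fit. Those listed below are C-type members and members at the ends of the scale of the contrast concerned. Others turned too, among them Pcdha4 at -0.72 and Pcdhb2 at -0.32 by genotype in litter 2 alone. By litter in controls alone Pcdha8 turned to 0.19. In litter 2 alone the genotype log2 fold change was -0.05 for Pcdha12, -0.16 for Pcdha10, -0.41 for Pcdha8, -0.11 for Pcdhb8, 0.08 for Pcdhgc5 and 0.36 for Pcdhga10. In litter 1 alone it was 0.09 for Pcdhb6 and -0.04 for Pcdhgc3. With Xist as a covariate it was 0.12 for Pcdhb6, 0.01 for Pcdhb19 and -0.06 for Pcdhgc3. Without 1 embryo it ran from -0.21 to 0.04 for Pcdhgc5 and from -0.28 to 0.18 for Pcdhga10. In the litter contrast Pcdhb2 was at 0.12 with Xist as a covariate and 0.10 in controls alone, and Pcdhgc3 at 0.05 in Dot1l-cKO alone. Pcdhga5 was at 0.00 to 0.01 under relative log expression, limma-voom, the other edgeR setting and DESeq2, at 0.02 with the GC correction, 0.07 in Dot1l-cKO alone and -0.05 to 0.03 without 1 embryo. Pcdhgb2 was at 0.01 with the GC correction, 0.05 with Xist as a covariate and in controls alone, and -0.09 to 0.03 without 1 embryo.

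Litter 2 held 2 embryos a genotype, which limits what it can show alone. The coefficient of variation of a member within group and litter had a median of 11.7%, and counting error alone gave 5.22%. CPM per kb assumed that reads were counted over a member's own bases alone, which was not checked.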
